A study of Mus musculus with 2 samples.

Results

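The 10 genes examined here encode Krüppel-like factors (KLFs) of the liver: Klf2, Klf3, Klf4, Klf6, Klf9, Klf10, Klf11, Klf13, Klf15 and Klf16. They were chosen by name, with earlier results of these data known, from 21866 mouse protein-coding genes that have an annotated protein-coding start site. CHOP, the C/EBP-family stress factor encoded by Ddit3, was located on the genome by ChIP-seq (sequencing of immunoprecipitated chromatin) in livers of wild-type (WT) mice injected intraperitoneally with tunicamycin, which blocks N-linked glycosylation and so disturbs protein folding in the endoplasmic reticulum, at 1 mg/kg body weight for 8 h. The CHOP library (n = 1) is a pool of 3 animals, and its input (n = 1) is likewise labelled as WT liver after tunicamycin. There is thus no replicate, and no count or fold below carries a test. No untreated or CHOP-deficient sample was analysed here, so the peaks describe where CHOP was found after tunicamycin and not what tunicamycin changed.

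KLF proteins bind GC boxes and CACCC-type sequences through zinc fingers at their carboxyl end, and are related to the Sp factors. They are commonly grouped by what the rest of the protein recruits: KLF9, KLF10, KLF11, KLF13 and KLF16 bind the Sin3 corepressor, KLF3 binds the CtBP corepressor, and KLF2, KLF4 and KLF6 act largely as activators. Several are early-response or hormone-driven genes in liver. Klf9 is induced by glucocorticoids, Klf10 by TGF-beta, and Klf15 by fasting, when its product drives genes of gluconeogenesis and amino acid breakdown.

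CHOP peaks lay at the promoters of 9 of the 10 Klf genes, Klf16 being the exception. A promoter peak is one whose summit lies within 1 kb of a start site of the gene, and 27.9% of all protein-coding genes had one. All 10 Klf promoters were rich in CpG dinucleotides, with a GC share of 59.0 to 75.7% and an observed/expected CpG ratio of 0.713 to 1.03 within 500 bp of the outermost start site. Among the 9848 genes with such promoters (GC share of at least 50% and CpG ratio of at least 0.6) 52.1% had a promoter peak, and among the other genes 8.08% did. Distal peaks, with a summit further than 1 kb but within 50 kb of the gene that has the nearest start site, were found at 5 Klf genes (Klf3, Klf9, Klf10, Klf11 and Klf13), against 18.0% of all protein-coding genes, 23.0% of those with a CpG-rich promoter and 27.6% of those with a promoter peak. These 5 also had promoter peaks, a combination found at 7.71% of all genes. A gene far from other start sites can be credited with distal peaks over a wider span. The upstream protein-coding neighbours of these 5 lay 572989, 374592, 217456, 70525 and 214920 bp away. Klf4 and Klf6, with upstream neighbours at 1207604 and 1252308 bp, had no distal peak. The shares of all genes given here and below were not matched for this spacing, and its effect was not tested. In total 20 peaks were assigned to the family, 12 at promoters and 8 distal, out of 14157 peaks in the list.

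**Figure D1:**
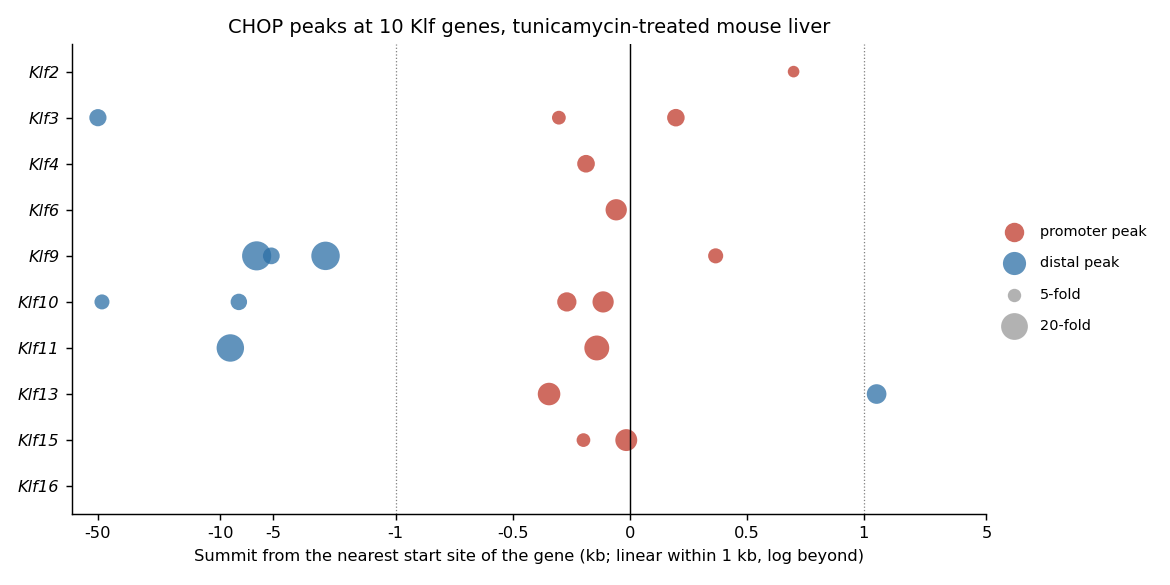
Position of every CHOP peak at the 10 Klf genes. The horizontal axis is the distance of the summit from the nearest start site of the gene in kb (linear within 1 kb, logarithmic beyond), each circle is 1 peak, its area is proportional to the fold enrichment, and colour separates promoter from distal peaks. Klf16 has no peak, and the distal peaks of Klf9, Klf10 and Klf11 lie upstream.

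The sequences below show the summit windows on which the account turns, each 50 bp either side of the summit unless trimmed. They are read from the GRCm38.p6 RefSeq genome, the assembly called mm10, in the direction of transcription of the gene, with matches to the motifs described further on in capitals. Klf9 comes first because its upstream peaks were the highest of the family. Of these, 1 held a C/EBP-ATF composite element, and 1 had a T-rich stretch in a window mostly marked as repeat.
Klf9, 6205 bp upstream, chr19:23134971-23135071, plus strand: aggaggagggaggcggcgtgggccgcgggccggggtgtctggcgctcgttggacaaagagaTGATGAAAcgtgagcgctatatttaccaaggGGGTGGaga
Klf9, 2513 bp upstream, chr19:23138663-23138763, plus strand: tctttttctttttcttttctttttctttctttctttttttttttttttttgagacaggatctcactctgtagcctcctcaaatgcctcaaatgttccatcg

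Klf11 is shown for the highest promoter peak of the family, which holds a CRE palindrome. It is also shown for a strong upstream peak with none of the motifs searched within 50 bp of its summit.
Klf11, promoter, chr12:24651705-24651805, plus strand: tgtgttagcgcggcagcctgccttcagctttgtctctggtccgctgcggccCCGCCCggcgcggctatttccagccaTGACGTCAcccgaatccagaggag
Klf11, 8764 bp upstream, chr12:24642460-24642560, plus strand: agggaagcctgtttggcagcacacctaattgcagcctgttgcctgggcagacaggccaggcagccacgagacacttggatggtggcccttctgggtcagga

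Klf15 is shown for both of its peaks, because the weaker, internal one holds the only C/EBP motifs within 50 bp of a Klf summit. The window at its first start site is trimmed at the downstream end.
Klf15, internal start, chr6:90466152-90466252, plus strand: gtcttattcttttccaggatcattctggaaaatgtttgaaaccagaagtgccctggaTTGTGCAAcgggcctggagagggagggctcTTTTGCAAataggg
Klf15, first start, chr6:90462511-90462605, plus strand: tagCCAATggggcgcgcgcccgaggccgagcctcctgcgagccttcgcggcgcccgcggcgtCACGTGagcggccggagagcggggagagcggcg

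Klf4, Klf6 and Klf10 are shown as promoters with an E-box, GC boxes or CCAAT boxes close to the summit, and Klf10 also for an upstream peak inside a tandem hexamer repeat.
Klf4, promoter, chr4:55532603-55532703, minus strand: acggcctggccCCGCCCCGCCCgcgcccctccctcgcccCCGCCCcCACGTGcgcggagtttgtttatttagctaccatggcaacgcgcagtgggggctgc
Klf6, promoter, chr13:5861374-5861474, plus strand: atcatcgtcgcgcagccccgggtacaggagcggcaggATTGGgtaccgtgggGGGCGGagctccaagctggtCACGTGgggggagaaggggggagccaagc
Klf10, promoter, chr15:38300770-38300870, minus strand: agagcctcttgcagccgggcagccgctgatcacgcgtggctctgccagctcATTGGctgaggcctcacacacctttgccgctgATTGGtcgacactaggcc
Klf10, 7837 bp upstream, chr15:38308493-38308593, minus strand: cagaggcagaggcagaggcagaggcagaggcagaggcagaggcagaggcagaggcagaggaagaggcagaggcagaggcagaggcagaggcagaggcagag

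The height of a peak is the authors' fold enrichment, the reads piled at the summit plus 1 divided by the local background plus 1. Because the pileup can be solved from the fold and its −log10 p, each fold is given with a 95% exact Poisson interval, which covers counting error at the summit only and not variation between animals. The 20 Klf peaks rested on 6 to 38 reads at the summit, against a median of 11 (4 to 329) over the list, and 4 of the 20 had 10 or fewer. Ppp1r15a (GADD34), the promoter at which the submitters tested the antibody, had a fold of 40.6 (31.2 to 51.9) on 61 reads. That is above the fold of every Klf peak, although its interval overlaps that of the highest, 23.6 (16.4 to 33.1) at Klf9. The chromatin is from whole liver, so binding in fewer cells and weaker binding per cell cannot be told apart, and a peak list does not show in which cell type, or whether, a gene was expressed.

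Among the Sin3-binding members, Klf11 had the highest promoter fold. Klf11 (chromosome 12, 24651274 to 24662789) encodes a repressor first described as a TGF-beta-inducible factor and linked to insulin gene control. Its promoter peak, chr12:24651039-24651923, had a fold of 17.3 (12.4 to 23.6) on 38 reads, higher than 93.2% of the 6100 genes with a promoter peak. The summit lay 141 bp upstream of an internal start site, in sequence annotated as intron, and 481 bp downstream of the first start. A further Klf11 peak, chr12:24642278-24642815, lay 8764 bp upstream in intergenic sequence. That peak had a fold of 21.0 (14.1 to 30.2) on 27 reads, and its interval overlaps that of the promoter peak.

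Klf13 (chromosome 7, 63886351 to 63938915), known from T lymphocytes as a regulator of a chemokine gene, followed with a fold of 14.2 (9.79 to 19.96) on 31 reads. Its peak, chr7:63938553-63939738, was 1186 bp wide with the summit 345 bp upstream of the start site. Next to it, chr7:63937238-63938400 had a fold of 10.8 (7.06 to 15.8) on 24 reads, with the summit in an intron 1183 bp downstream of the start. The summits are 1528 bp apart, both peaks are over 1 kb wide, and the second counts as distal because its summit lies just past the 1 kb limit.

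Klf10 (chromosome 15, 38291463 to 38300706), the TGF-beta-inducible early gene, had 2 promoter peaks. The peak at the first start, chr15:38300649-38301125, had a fold of 12.6 (8.23 to 18.4) on 24 reads with its summit 114 bp upstream. The other, chr15:38299010-38299744, had a fold of 10.3 (6.71 to 15.3) on 23 reads and lay in an intron, 269 bp upstream of an internal start site and 1355 bp downstream of the first. In all, 3 of the 10 Klf genes (Klf3, Klf10 and Klf15) had 2 promoter peaks, which 3.60% of all genes and 12.9% of genes with a promoter peak had. These 3 had 4, 4 and 5 start sites, the most among the 10, against a median of 2 over all genes. The second peaks of Klf10 and Klf15, 1355 and 3626 bp from the first start, count only through internal starts. The effect of the number of start sites was not tested. Upstream of Klf10 were 2 further peaks: 7837 bp away with a fold of 7.55 (4.75 to 11.5) on 20 reads, and 47215 bp away with a fold of 6.29 (3.11 to 11.7) on 8 reads.

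Klf9 had its highest peaks upstream and a low one at its promoter. Of the 5 Klf genes with both kinds of peak, Klf9 and Klf11 had a distal peak higher than any promoter peak, against 55.9% of all genes with both, and only in Klf9 were the intervals apart. The gene (chromosome 19, 23141226 to 23168134) encodes a glucocorticoid-induced and clock-driven repressor. Its promoter peak, chr19:23140694-23141808, was broad at 1115 bp but had a fold of 6.34 (3.99 to 9.63) on 20 reads over a local background of 2.31 reads, with the summit 367 bp past the start, inside the 5′ UTR. The peak 6205 bp upstream, chr19:23134321-23135185, reached 23.6 (16.4 to 33.1) on 32 reads over a background of 0.396 reads. That fold was 3.73 times that of the promoter peak, with intervals that do not overlap, and higher than 94.6% of all peaks outside promoters. Its summit lay 121 bp from the start of 2410080I02Rik, a long intergenic noncoding RNA gene, so position alone does not assign it to Klf9.

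A further Klf9 peak 2513 bp upstream, chr19:23138558-23138870, had a fold of 22.6 (15.9 to 31.2) on 35 reads, and 1 at 5118 bp upstream had a fold of 7.83 (4.34 to 13.2) on 12 reads. The 2513 bp peak was 313 bp wide, and 79.2% of its summit window is marked as repeat in the reference. This window shared at least 1 stretch of 20 bases with the windows of 237 other peaks, whereas the other 3 Klf9 windows shared none. The peak at 7837 bp upstream of Klf10 was alike in this: its window is 100% repeat, shown above as a hexamer repeat, and shared 20 bases with 13 other windows. Whether reads from repeats contribute to these 2 folds was not tested. With 4 peaks each, Klf9 and Klf10 were among the 280 genes (1.28%) with 4 or more. A distal peak of 20-fold or more was present at 2 of the 10 Klf genes, Klf9 and Klf11, against 1.82% of all genes. Without the windows that are at least 50% repeat, both genes still had 1, against 0.956% of all genes. None of these shares was matched for the distance to neighbouring genes.

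**Figure D2:**
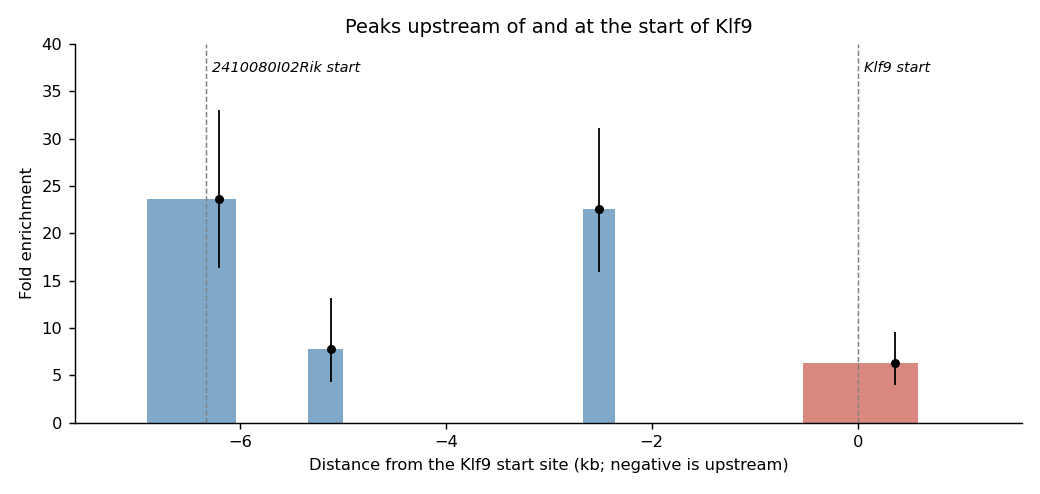
The 4 CHOP peaks at Klf9. The horizontal axis is the distance from the Klf9 start site in kb, each box spans a peak with its height at the fold enrichment, and points with bars mark the summit and the 95% Poisson interval. The peaks 6205 and 2513 bp upstream reach 23.6 and 22.6, against 6.34 at the start site, and the first lies at the start of 2410080I02Rik.

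Klf16 (chromosome 10, 80567124 to 80577321), the remaining Sin3-binding member, had neither a promoter nor a distal peak, although its promoter is as CpG-rich as the others (ratio 0.879, GC share 73.7%). The neighbouring genes Abhd17a and Rexo1 lay 9303 bp upstream and 15761 bp downstream. A distal peak is credited only to the gene with the nearest start site. The span in which Klf16 could gain one was therefore much shorter than 50 kb, and its lack of a distal peak is not comparable with the other members. The summit nearest to the Klf16 start site lay 12899 bp away, had a fold of 4.71 on 9 reads and was nearest to Abhd17a. A gene without a listed peak may have enrichment under the caller's limit, which the list does not show.

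The CtBP-binding member Klf3 (chromosome 5, 64803388 to 64832901), a broad repressor, had promoter peaks on either side of its first start. The downstream one, chr5:64803419-64804591, 1173 bp wide with its summit 197 bp into the 5′ UTR, had a fold of 8.58 (5.62 to 12.6) on 24 reads. The upstream one, chr5:64802735-64803193, had a fold of 5.30 (2.94 to 8.96) on 12 reads, with its summit 303 bp before the start. Both summits were within 1 kb of starts of the noncoding genes Gm20033 and C230096K16Rik. A peak 49793 bp upstream had a fold of 8.25 (4.35 to 14.5) on 10 reads, and the 3 intervals overlap.

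The activators differed among themselves. Klf6 (chromosome 13, 5861482 to 5870394) is an immediate early gene known in liver for its role in activated stellate cells. Its peak, chr13:5861104-5861731, had a fold of 12.6 (7.96 to 19.2) on 20 reads, with the summit 58 bp upstream of the only start site. Klf4 (chromosome 4, 55527143 to 55532466), one of the pluripotency reprogramming factors, had a fold of 8.68 (5.33 to 13.5) on 18 reads at chr4:55532563-55532965, 187 bp upstream. Klf2 (chromosome 8, 72319033 to 72321656), the shear-stress factor of endothelium, had the lowest fold of the family at 3.77 (1.93 to 6.82) on 9 reads over a background of 1.65 reads. The Klf2 peak, chr8:72319565-72319831, lay in a coding exon 700 bp downstream of the start, and only 2.23% of genes with a promoter peak had a lower fold.

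Klf15 (chromosome 6, 90462576 to 90475238), the fasting factor, had its main peak at the first start. That peak, chr6:90462346-90463380, was 1035 bp wide with the summit 15 bp upstream and had a fold of 13.4 (9.57 to 18.2) on 38 reads. The second promoter peak, chr6:90466141-90466371, lay in an intron 3626 bp into the gene and 198 bp upstream of an internal start. It rested on 6 reads, with a fold of 5.25 (2.40 to 10.5).

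**Figure D3:**
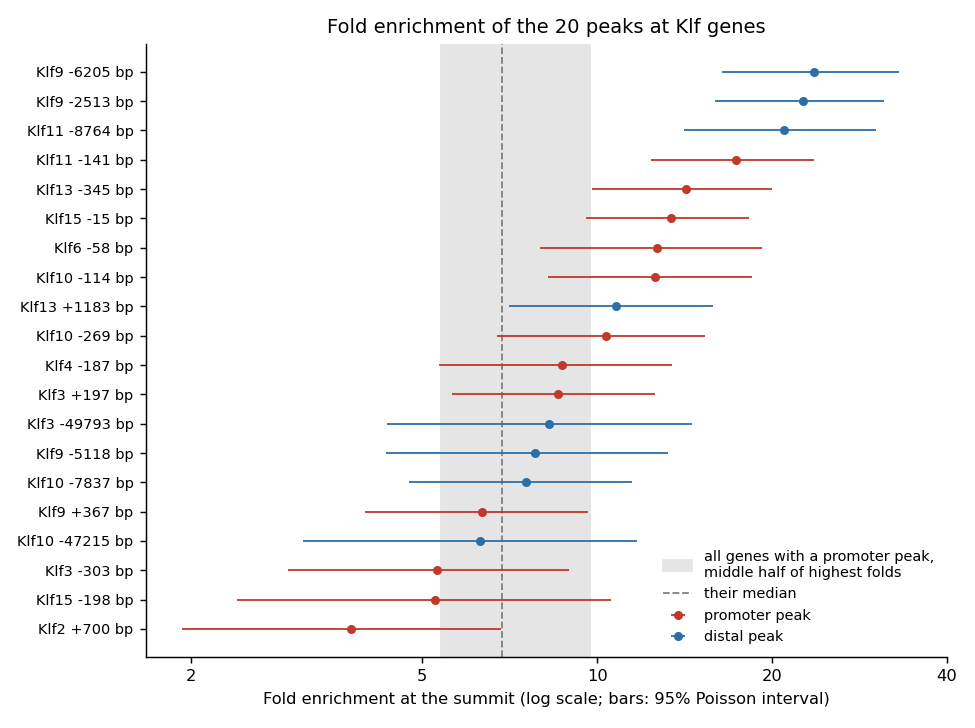
Fold enrichment of the 20 peaks at Klf genes. Points are the authors' fold on a log axis, bars are 95% Poisson intervals, and each peak is named by its gene and the distance of its summit from the nearest start site. The grey band is the interquartile range and the dashed line the median of the highest promoter fold over all genes with a promoter peak, from 5.39 to 9.72 with a median of 6.86. The highest promoter peaks of Klf11, Klf13, Klf15, Klf6 and Klf10 lie above the band.

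Ranked by the highest promoter fold, the order was Klf11, Klf13, Klf15, Klf6, Klf10, Klf4, Klf3, Klf9 and Klf2. Every pair of neighbours in this order had overlapping intervals, and of the 36 possible pairs 7 did not overlap: Klf11 and Klf13 were above Klf9 and Klf2, and Klf15, Klf6 and Klf10 above Klf2. The median over the 9 genes was 12.6, against 6.86 over the 6100 genes with a promoter peak and 6.90 over those of them with a CpG-rich promoter. Peaks at Klf promoters were also wide. Of the 12, 4 spanned 1 kb or more (33.3%), against 4.08% of all 6306 promoter peaks, and their median width was 682 bp against 351 bp. The same 12 peaks had a median of 21.5 reads at the summit, against 13 over all promoter peaks. Whether they were wider than promoter peaks with equal reads was not tested. Of the 12 summits, 9 lay upstream of their nearest start site, whereas 62.9% of all promoter summits lay at or downstream of it. Measured from the first start of each gene, 6 of the 12 lay upstream.

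The limits of the selection fell between few peaks. The promoter peak furthest from its start was that of Klf2 at 700 bp, and the nearest summit outside the limit was that of Klf13 at 1183 bp with a fold of 10.8. At the 50 kb limit, the Klf3 peak at 49793 bp was inside, with a fold of 8.25. The next, 51223 bp upstream of Klf3, was outside with a fold of 20.3 on 30 reads; it was 316 bp wide, 56.4% of its window is repeat, and it shared 20 bases with 43 other windows.

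Motif letters were searched on both strands within 50 bp of the summit, and matches of different motifs may overlap. A C/EBP motif (TTGCNNAA), a C/EBP-ATF composite (TGATGNAA), a CRE (TGACGTCA) or an AP-1 site (TGANTCA), the elements that CHOP partners are known to bind, occurred at 2 of the 12 Klf promoter summits (16.7%), against 5.68% of all promoter peaks. They occurred at 1 of the 8 distal summits (12.5%), against 18.9% of all peaks outside promoters. The promoter matches were the CRE of Klf11, 27 bp downstream of the summit, a motif in 0.86% of promoter peaks, and the C/EBP motifs at the internal start of Klf15, in 2.11% of promoter peaks. The distal match was the composite element 11 bp downstream of the summit of the Klf9 peak at 6205 bp, a motif in 9.81% of peaks outside promoters. None of the 20 windows held an AP-1 match or the glucocorticoid receptor motif TGTTCT, but these are in only 2.68% and 4.39% of all peaks, so 20 windows are too few to show a difference.

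A GC box (GGGCGG), the kind of site that KLF and Sp proteins themselves bind, was found at 7 of 12 promoter summits (58.3%), against 45.4% of all promoter peaks, and at 2 of 8 distal summits, those of Klf9 at 5118 bp and Klf13, against 5.78% of all peaks outside promoters. The distal windows of Klf9 at 5118 bp and Klf13 had a GC share of 69.3 and 78.2%. The median over all peaks outside promoters was 47.5%, and GC share was not matched in this comparison. Klf4 and the internal start of Klf10 had 3 GC boxes each. The related CACC box (CCACCC) matched at 1 promoter summit, that of Klf13 (8.33%, against 12.7% of all promoter peaks), and at 1 of 8 distal summits, that of Klf9 at 6205 bp (12.5%, against 6.29% of all peaks outside promoters). An E-box (CACGTG), the site of clock and MYC-type factors, was present at 3 of the 12 promoter summits, those of Klf4, Klf6 and the first start of Klf15 (3 of 12, against 5.41% of all promoter peaks). In Klf4 it spanned the summit itself. CCAAT boxes (CCAAT) were also found at 3 promoter summits (Klf6, Klf10 and Klf15), against 7.52% of all promoter peaks, with 2 matches at Klf10. Of the 8 distal summits, 1 held a CCAAT box, the Klf3 peak 49793 bp upstream (12.5%, against 10.5% of all peaks outside promoters). None of the 9 motifs matched at 1 of the 12 promoter summits, the 5′ UTR peak of Klf3 (8.33%, against 38.8% of all promoter peaks). The same was true of 4 of the 8 distal summits, those of Klf9 at 2513 bp, of Klf10 and of Klf11, against 58.6% of all peaks outside promoters. A match shows only that these letters are present.

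**Figure D4:**
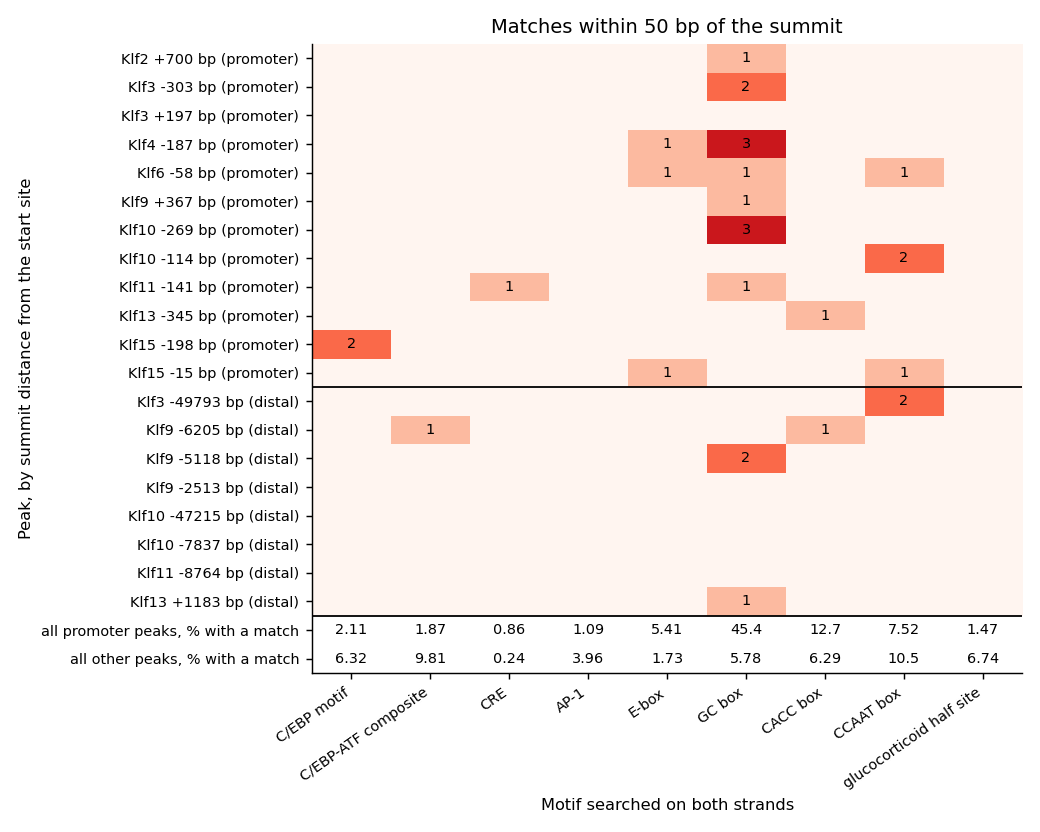
Number of motif matches within 50 bp of each Klf summit, by peak (rows) and motif (columns). The upper block is the 12 promoter peaks, the next the 8 distal peaks, and the lowest rows give the percent of all promoter peaks and of all other peaks with at least 1 match. GC boxes fill the most promoter rows (7 of 12), and the AP-1 and glucocorticoid columns are empty.

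Of the 16 other Klf and Sp genes, 7 had a promoter peak (43.8%, against the same 27.9% of all genes), with a median highest fold of 6.70 and none above 8.75. That top value, of Klf12, was below the folds of Klf11, Klf13, Klf15, Klf6 and Klf10 but above those of Klf4, Klf3, Klf9 and Klf2, and its interval overlaps those of all 5 genes with higher folds. Those with the highest folds were Klf12, a CtBP-binding repressor, at 8.75 (5.22 to 13.9), Klf7 at 8.43 (5.18 to 13.1), Sp1, the broadly expressed GC-box factor, at 7.12 (3.75 to 12.55) and Sp4 at 6.70 (3.62 to 11.5). CpG-rich promoters were found in 9 of these 16, compared with all 10 of the liver set. Distal peaks were found in 9 of these 16 (56.25%), against 18.0% of all genes and 5 of the 10 in the liver set. The share of genes with a distal peak was thus not higher in the liver set. The difference between the sets was not tested.

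Genes for the partners of KLF proteins had promoter peaks at 11 of 17 (64.7%, against 27.9% of all genes and 52.1% of CpG-rich ones; 15 of the 17 are CpG-rich). Ep300, the acetyltransferase p300 that serves KLF activators, had the highest fold at 11.9 (8.33 to 16.6) on 33 reads. It was followed by Wwp1, a ubiquitin ligase for KLF proteins, at 7.94 (4.94 to 12.2), Sin3a, the corepressor scaffold, at 7.85 (4.25 to 13.5) and Ctbp1, the KLF3 partner, at 7.83 (4.595 to 12.6). The median highest fold of the 11 was 6.79, against 6.86 over all genes with a promoter peak.

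**Figure D5:**
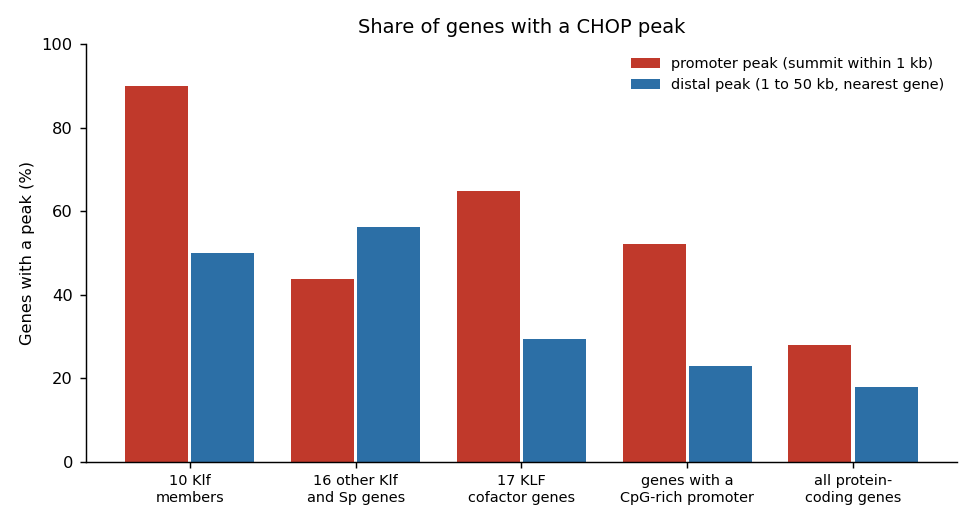
Percent of genes with a promoter peak (summit within 1 kb) and with a distal peak (1 to 50 kb, nearest gene) in the 10 Klf members, 16 other Klf and Sp genes, 17 KLF cofactor genes, genes with a CpG-rich promoter and all protein-coding genes. The Klf members reach 90.0% for promoter peaks, against 52.1% of genes with a CpG-rich promoter and 27.9% of all genes.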

How the data were processed

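The labels' protocols give single-end sequencing, alignment by Bowtie (version not given in the sources used here) against mm10 with up to 2 mismatches, and removal of reads beyond 2 at the same place and strand. They name SAMtools 1.9 and Sambamba 0.7.1 for filtering and MACS2 2.1.2, with its defaults, for the peaks. The authors deposited for each peak a fold (a ratio of summit pileup to local background), its −log10 p and −log10 q, a score, which was not used, and a summit offset. These values describe and rank peaks within this list only. Removing stacked reads limits the pileup of narrow peaks. Library totals and the input's own values were not analysed here.

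Pileup and background were solved from fold and −log10 p for all 14157 peaks (largest residual 3.13e-05 in −log10 p, tolerance 0.0001; 1 peak had a second solution within it). Start sites are those of protein-coding transcripts in GENCODE M21, and the sequence is GRCm38.p6, whose chromosome lengths fit the peaks. A peak counts as a promoter peak of every gene within 1 kb. Repeat marks are the lower-case letters of the reference, and windows sharing 20 bases on either strand were counted over all peaks. The solver, motif search and assignment were checked on simulated data. Each Klf peak is named with its values, and of the other lists up to 4 genes with the highest promoter fold. Members and lists were chosen with earlier results of these data known. Python 3.11.15, numpy 2.4.6, pandas 2.3.3, scipy 1.17.1 and matplotlib 3.10.9 were used.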

Additional observations from a re-analysis of the deposited data

How the results depend on the processing

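The count of Klf genes with a promoter peak stayed between 7 and 9 in 9 alternatives: Klf2 was lost with summits within 500 bp, with −log10 q of at least 5 and with a fold of at least 5, and Klf2 and Klf9 among peaks at or above the median fold. Under that last setting 3218 of all genes (14.7%) had a promoter peak, as did 3 of the 16 other Klf and Sp genes and 6 of the 17 cofactors. With −log10 q of at least 5, 4 of the 16 other Klf and Sp genes had one, against 21.0% of all genes. The share of all genes was 25.8% with summits within 500 bp and 23.5% with a fold of at least 5. With a promoter limit of 3 kb the highest fold of Klf9 became that of the peak in repeat sequence, 22.6. With 25 bp around the summit instead of 50 bp, of the 20 Klf summits 5 held a GC box (13.9% of all peaks did), 1 a CACC box (4.49%) and 0 a CRE (0.27%). With 100 bp, 5 held a CACC box (17.8% of all peaks), 2 a composite element (8.86%) and 1 the glucocorticoid receptor motif (9.59%). With a distal limit of 20 kb, 4 Klf genes kept a distal peak (Klf3 was lost), against 13.3% of all genes. Klf13 had no distal peak with a promoter limit of 3 kb or with any base of the peak within 1 kb (15.6% and 17.7% of all genes had one). Klf2 gained one with summits within 500 bp and Klf15 with the outermost start site only (20.1% and 18.9%). Removing peaks in repeat windows, an alternative chosen after seeing the data, left 9 Klf genes with a promoter peak and 5 with a distal one, while all genes with a promoter peak fell to 5982, against 6100 with every peak, and the share of all genes with a distal peak to 13.1%, against 18.0%. Summit pileups of 6 to 38 reads limit the precision of every fold. No paired analysis was possible because each group has 1 library.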
